A study of Mus musculus with 2 samples.

Results

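The transcripts of 49 genes that act in G2 phase and mitosis were examined in single cells of the newborn mouse cerebral cortex, out of 27998 genes counted. The genes are given by a list of names drawn up with earlier results of these data known, and all 49 were found in the count matrices. They include the mitotic kinase Cdk1 and its partners, the chromosomal passenger complex, kinetochore, centromere and condensin subunits, spindle proteins and mitotic kinesins, and the regulators through which the anaphase-promoting complex (APC/C) ends mitosis. Their UMIs (unique molecular identifiers, 1 for each captured RNA molecule) were compared between phases of the cell cycle, between cycling neural, glial and vascular cells, and between the 2 libraries of the study.

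The study made 1 library from wild type (WT) mice and 1 from STINGf/f;Nestin-Cre mice (cKO), both C57BL/6 and at postnatal day 0 (P0), from cortex dissociated with papain and captured on the 10x Genomics Chromium platform. Nestin-Cre makes Cre recombinase in the neural lineage, so that the floxed STING gene is deleted in neural cells and their offspring and is not the intended target in microglia or vessels. The labels call the control wild type, while the text of the study also names it STINGfl/fl, and which of these it was is not settled here. How many animals went into each library is not given in the sources used here. After filters on genes, mitochondrial RNA and doublets, 6400 WT cells (median 6476 UMIs) and 5784 cKO cells (median 7461 UMIs) were kept. STING itself (Tmem173) had 107 UMIs in WT and 15 in cKO. Xist had 10 and 67737 UMIs, and the Y-linked gene Ddx3y had 2718 and 0, so that genotype, sex and library cannot be told apart. UMIs of 13 of 13 radial glia, 7 of 7 Eomes-lineage and 12 of 12 neuron markers were found in each library, as cortex should hold. The libraries shared 8 barcodes among the kept cells. With 1 library a group no test was run, and every interval below is a 95% interval of counting error alone.

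In a dividing cell, cyclin B binds Cdk1 and the pair drives entry into mitosis, while condensin and topoisomerase II shape the chromosomes. Kinetochores then attach chromosomes to the spindle, the passenger complex corrects faulty attachments, and the APC/C with its activator Cdc20 triggers separation. Many of these genes are silent outside the cycle and are switched on together late in it by the MuvB complex with B-Myb and FoxM1, which acts through a short promoter element called CHR (cell cycle genes homology region), often beside CCAAT boxes bound by NF-Y. In the newborn cortex such cells are radial glia, Eomes-expressing intermediate progenitors, Dlx-expressing progenitors of interneuron type, and oligodendrocyte precursor cells (OPC).

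Promoters are shown first, and no sequence was used in the expression results below. The 49 genes were listed with earlier results of these data known, so the motif shares are not independent of expression. RefSeq start sites on GRCm38.p6 were matched for 43 of the 49 genes, and windows from 250 bases before to 50 after the start were searched on both strands. The CHR letters TTTGAA were found for 31 of the 43 genes (72.1%), against 20.2% of 27025 genes with a window. CCAAT was found for 33 (76.7%), against 41.1%. A CHR or its variant TTCGAA together with CCAAT was found for 28 (65.1%), against 8.61%, and 28 (65.1%, against 6.79%) had a CHR or variant between 60 bases before the start and the window's end. The windows of 5 genes, Birc5, G2e3, Nuf2, Nusap1 and Tacc3, held none of these letters. A match describes the letters and is not a measured binding site, and a CHR and a CCAAT box can share at most 1 base at their ends. Windows of 7 genes are printed below from 150 bases before to 50 after the start, on the gene's strand, with the CHR, its variant and the CCAAT box, read on either strand, in capitals. Cdk1, Hmmr, Ube2c, Top2a and Mki67 are among the genes far higher in G2/M-marked than in S-marked cells, and Tubb4b and Ckap5 are the exceptions that the last results turn on. The windows are chr10:69352863-69353062 (minus strand) for Cdk1, chr11:40733388-40733587 (minus strand) for Hmmr, chr2:164769779-164769978 (plus strand) for Ube2c, chr11:99024140-99024339 (minus strand) for Top2a, chr7:135716330-135716529 (minus strand) for Mki67, chr2:25224653-25224852 (minus strand) for Tubb4b and chr2:91526612-91526811 (plus strand) for Ckap5.
Cdk1: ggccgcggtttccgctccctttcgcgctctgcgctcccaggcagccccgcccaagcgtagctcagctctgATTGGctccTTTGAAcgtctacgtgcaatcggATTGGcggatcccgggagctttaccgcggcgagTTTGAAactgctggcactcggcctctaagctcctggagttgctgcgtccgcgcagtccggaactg
Hmmr: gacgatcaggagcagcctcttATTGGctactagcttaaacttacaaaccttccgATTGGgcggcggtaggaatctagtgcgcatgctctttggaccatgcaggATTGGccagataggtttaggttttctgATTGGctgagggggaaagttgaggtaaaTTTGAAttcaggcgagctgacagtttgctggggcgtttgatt
Ube2c: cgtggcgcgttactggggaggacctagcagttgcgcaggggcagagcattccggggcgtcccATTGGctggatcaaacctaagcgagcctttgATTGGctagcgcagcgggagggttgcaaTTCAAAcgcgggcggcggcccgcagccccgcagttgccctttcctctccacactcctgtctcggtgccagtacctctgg
Top2a: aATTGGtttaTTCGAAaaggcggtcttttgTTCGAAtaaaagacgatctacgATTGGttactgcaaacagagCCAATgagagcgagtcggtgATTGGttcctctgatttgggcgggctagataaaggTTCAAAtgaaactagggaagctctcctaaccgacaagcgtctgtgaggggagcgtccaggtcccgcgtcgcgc
Mki67: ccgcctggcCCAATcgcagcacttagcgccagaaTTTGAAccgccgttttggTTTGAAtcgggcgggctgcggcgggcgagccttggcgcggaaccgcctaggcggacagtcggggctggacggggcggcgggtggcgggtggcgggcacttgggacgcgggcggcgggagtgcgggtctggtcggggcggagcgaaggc
Tubb4b: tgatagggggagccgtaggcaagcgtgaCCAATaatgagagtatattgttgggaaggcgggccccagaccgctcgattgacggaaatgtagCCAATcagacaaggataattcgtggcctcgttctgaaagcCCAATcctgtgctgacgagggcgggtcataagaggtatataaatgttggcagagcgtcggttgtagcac
Ckap5: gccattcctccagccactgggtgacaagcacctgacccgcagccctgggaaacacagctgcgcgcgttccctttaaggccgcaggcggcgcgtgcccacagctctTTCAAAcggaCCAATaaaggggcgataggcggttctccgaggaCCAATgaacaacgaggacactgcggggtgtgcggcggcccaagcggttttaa
In the printed stretches, Cdk1 holds a CHR 15 to 10 bases before the start and another 71 to 66 bases before it, Ube2c has its CHR 29 to 24 bases before the start, and Hmmr has it 9 to 14 bases after. Mki67 has both of its CHR letters farther upstream, at 116 to 111 and 98 to 93 bases before the start. Top2a carries both kinds, a CHR 23 to 18 bases and the variant 120 to 115 and 140 to 135 bases before the start. Tubb4b shows CCAAT boxes and no CHR in the printed stretch, its only CHR lying 198 to 193 bases before the start, and Ckap5 has a CHR 45 to 40 bases before. The G2/M over S ratio did not follow the motifs. The 28 genes with both motifs had a median fold of 25.9 in WT and 31.9 in cKO, the 15 other genes with a window 30.2 and 19.2, and the 5 genes without motif 52.6 and 23.7.

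Cells were marked as G2/M by at least 3 UMIs of 16 other mitotic genes that are not among the 49 (such as Ccnb1, Ccna2 and Plk1), and as S phase by at least 15 UMIs of 29 replication genes (such as Mcm2 to Mcm7 and Pcna) without the G2/M mark. Each minimum is the smallest that at most 1% of neuron-marked cells reached in either library. Lineages were set by marker UMIs. Radial glia-, Eomes- and Dlx-marked cells are called neural progenitors here when they carried a phase mark, which gave 429 WT and 290 cKO cells in G2/M (median 10052 and 11904 UMIs) and 106 and 68 in S phase. Levels are CPM, the UMIs of a gene scaled to 1000000 UMIs over all cells of the group. They are compared within a gene and not between genes.

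All 49 genes had UMIs in the G2/M-marked neural progenitors of both libraries, and together they made up 14869 CPM (95% interval 14759 to 14980) in WT and 15137 CPM (15012 to 15263) in cKO. In S-marked progenitors the sum was 2084 CPM (1999 to 2172) in WT and 1800 CPM (1718 to 1886) in cKO. In neuron-marked cells it was 868 and 887 CPM, with the G2/M mark in 7 WT and 8 cKO cells and the S mark in 0 and 12. A G2/M-marked progenitor held from 3 to 701 UMIs of the 49 genes in WT (median 120) and from 0 to 892 in cKO (median 141), and a neuron-marked cell a median of 5 and 6 (highest 54 and 380).

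Each of the 49 genes was at least 2-fold higher in G2/M-marked than in S-marked progenitors in both libraries, which was the case for 3.02% of the 10355 genes with enough UMIs. For the count of the 49, genes without S-phase UMIs were set at a floor of 3 UMIs. For the share over all genes a count of 0 was put at 0.5 UMIs, and all 49 passed under that rule too. The rise was 10-fold or more in both libraries for 36 genes and under 5-fold for 6, counts for which no share over all genes was taken. The marks rest on other genes, and none of the 49 was used to place a cell in a phase. The 16 marking genes act in the same phase, though. By the choice of cells they summed to 2903 against 82.6 CPM in WT and 2598 against 53.6 CPM in cKO. A rise of genes that go with them was therefore largely set by the marking. However, the S-marked cells differed from the G2/M-marked ones in more than the mark. They held less of the S-phase list, at 3358 against 4120 CPM in WT and 2122 against 3512 CPM in cKO, and more of the neuron markers, at 2455 against 1525 CPM in WT and 4409 against 989 CPM in cKO, where neuron-marked cells had 8044 and 7264 CPM. The part of this in the ratios was not tested, and a rise below means the level in G2/M-marked over S-marked cells.

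**Figure D1:**
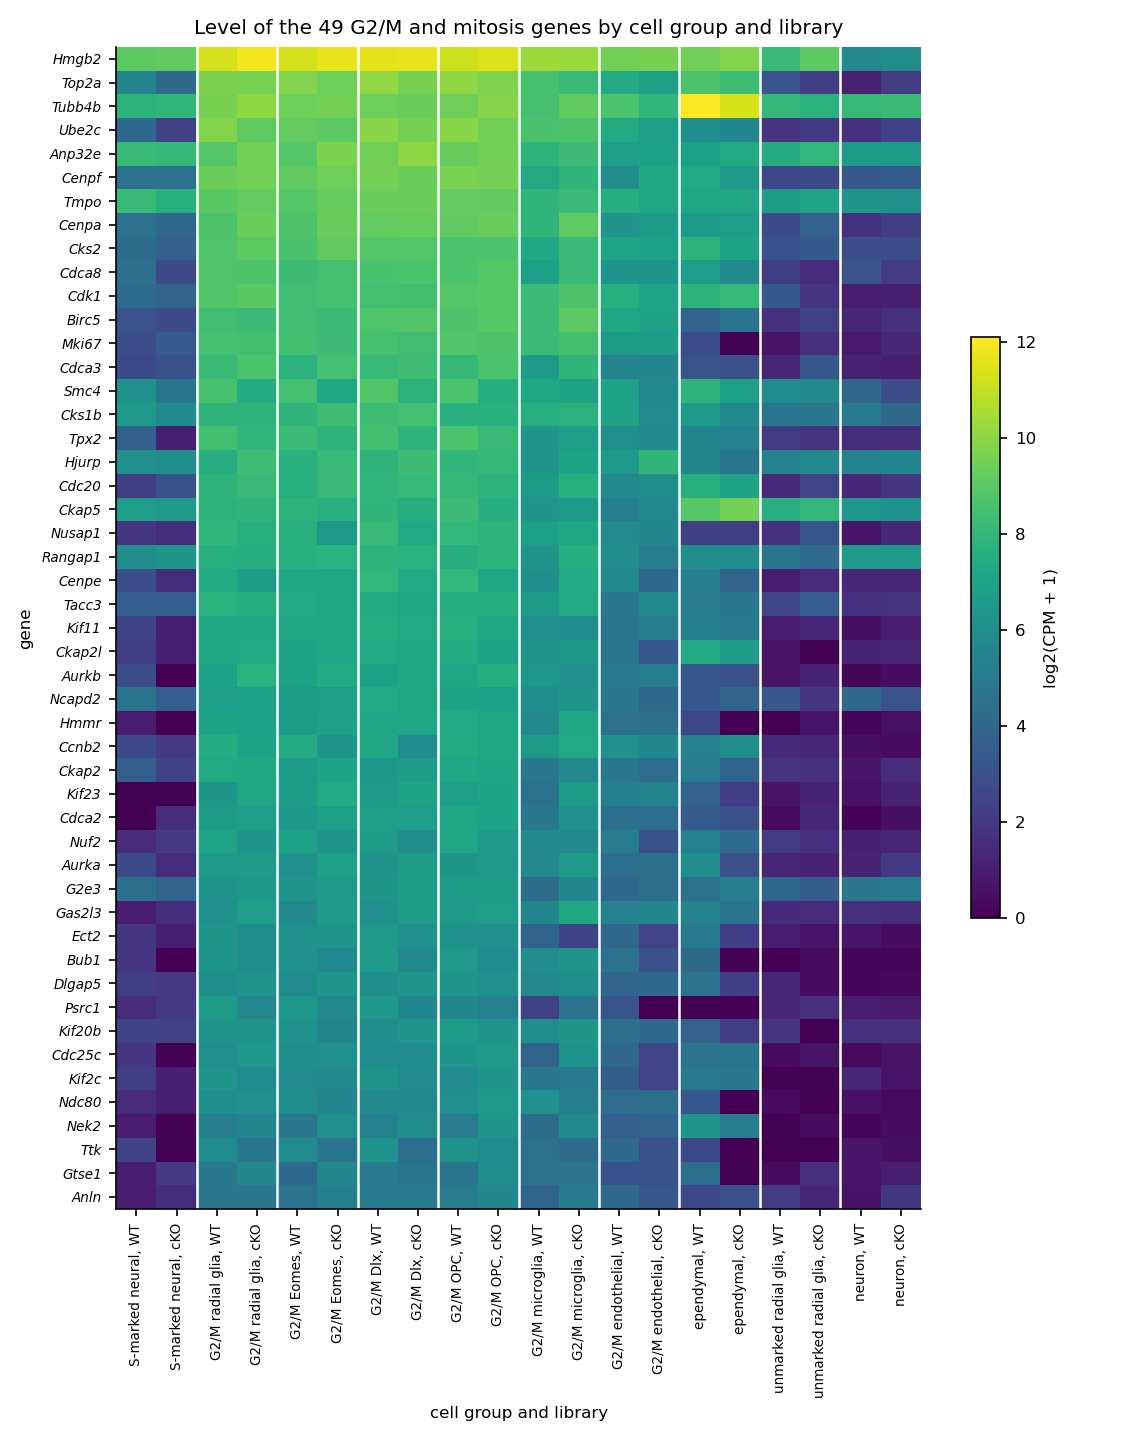
Levels of the 49 genes as log2(CPM + 1) (colour) in each cell group (columns, WT and cKO side by side), with the genes in rows. The G2/M-marked progenitor and OPC columns are high for nearly every gene, the neuron columns are low for most, and Tubb4b and Ckap5 are high in ependymal-marked cells.

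By the mean log2 ratio of the libraries, with 0 counts placed below 1 UMI for this ranking, Kif23, Hmmr, Cdca2 and Ube2c stood highest. Kif23, the kinesin of the central spindle, had 0 UMIs in the S-marked cells of both libraries and 91.4 CPM in WT and 140 CPM in cKO G2/M cells, at least 32.8-fold and 46.3-fold higher with the 0 counts set at 3 UMIs. Hmmr, a spindle pole protein, had 1 S-phase UMI in WT (136-fold, log2 7.09, interval 4.60 to 12.39) and 0 in cKO (at least 42.0-fold). Cdca2, which brings a phosphatase to chromatin at mitotic exit, had 0 S-phase UMIs in WT and 2 in cKO (53.4-fold). These folds rest on few S-phase molecules and their order is not resolved. Ube2c, the ubiquitin-conjugating enzyme of the APC/C, rested on 18 and 4 S-phase UMIs and rose from 16.7 to 875 CPM in WT (52.4-fold) and from 4.04 to 642 CPM in cKO (159-fold).

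Ckap5, Tmpo, Anp32e and Rangap1 stood lowest by the same measure. Ckap5, which adds tubulin to microtubule ends, had 110 CPM in S-marked and 233 CPM in G2/M-marked WT progenitors (2.13-fold), and 88.9 and 203 CPM in cKO (2.28-fold). Tmpo, a lamin-binding protein of the inner nuclear membrane, changed 2.05-fold in WT and 3.20-fold in cKO. Anp32e, the chaperone of the histone H2A.Z, changed 2.04-fold and 3.36-fold, and Rangap1, the GTPase activator of Ran, 3.23-fold and 2.40-fold. These 4 genes also had UMIs in neurons. Neuron-marked cells had 88.0 CPM of Ckap5 in WT and 71.6 in cKO, 75.6 and 73.2 CPM of Tmpo, 94.2 and 95.1 CPM of Anp32e, and 96.1 and 96.3 CPM of Rangap1. Tubb4b, a beta-tubulin, had 275 and 305 CPM in neurons and a 3.18-fold and 3.24-fold rise. Hmgb2 (51.1 and 62.4 CPM), Hjurp (40.0 and 48.7), Cks1b (31.2 and 17.1) and G2e3 (26.9 and 32.3) were the other genes above 25 CPM in neurons in either library. In contrast, neurons had 0.979 and 1.08 CPM of Cdk1 and 0.816 and 1.55 CPM of Mki67, the proliferation antigen Ki-67.

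**Figure D2:**
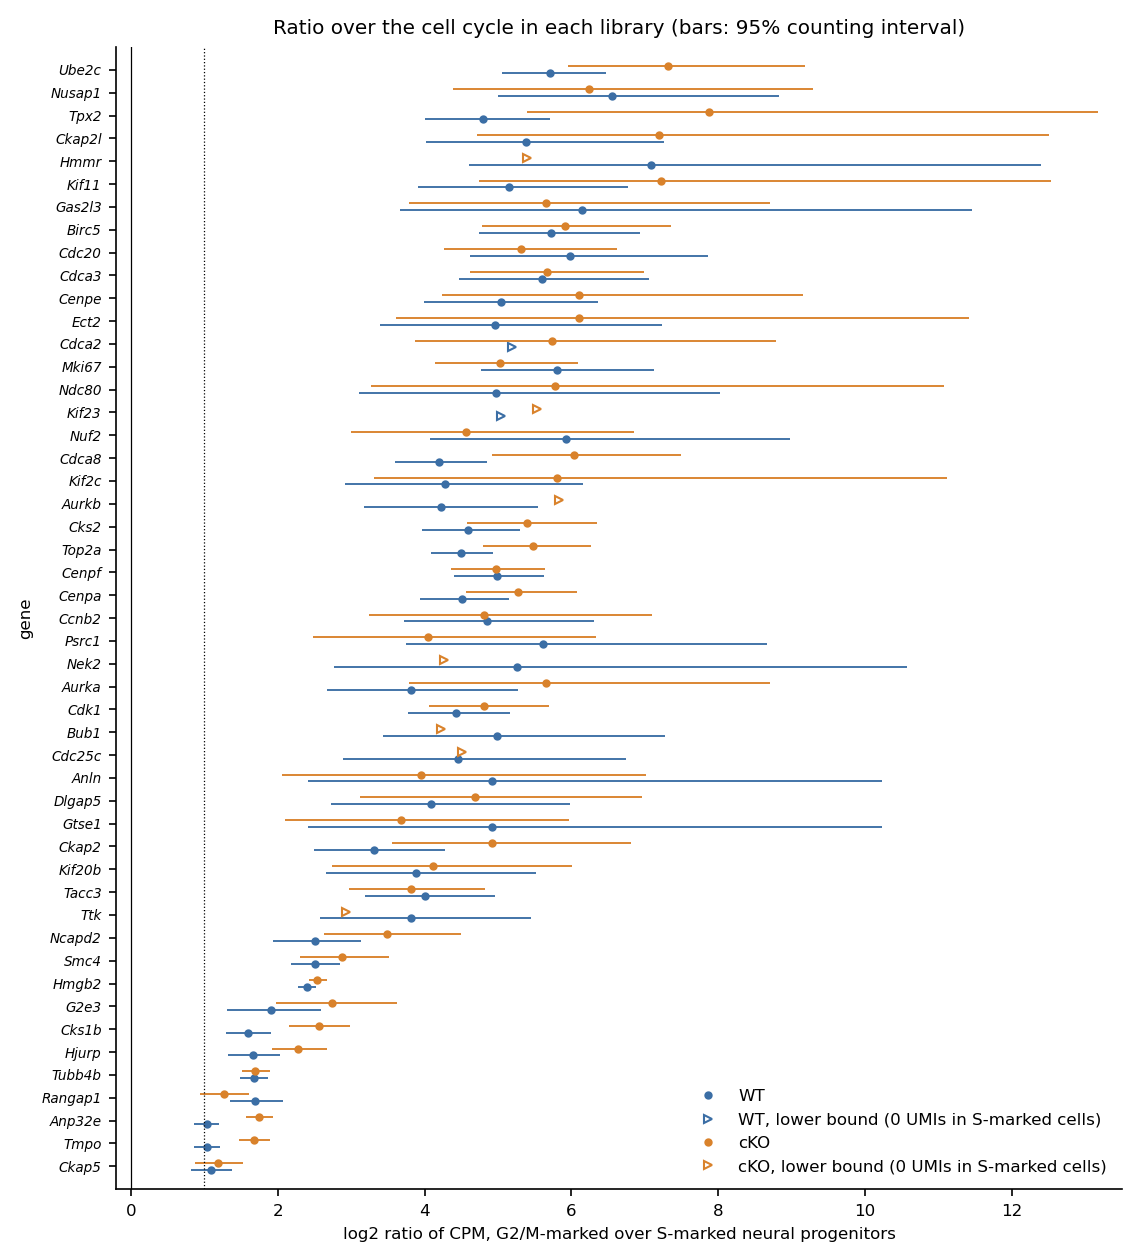
Log2 ratio of CPM in G2/M-marked over S-marked neural progenitors (x axis) for each gene (y axis), with WT and cKO as separate points, 95% counting intervals as bars and open triangles as lower bounds where S-marked cells had 0 UMIs. All points lie to the right of the dotted line at 2-fold, and Ckap5, Tmpo, Anp32e and Rangap1 lie nearest to it.

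Among Cdk1 and its partners, Cdk1 rose 21.4-fold in WT (17.6 to 378 CPM) and 28.1-fold in cKO (14.2 to 398 CPM). Ccnb2, cyclin B2, went from 5.57 to 161 CPM in WT and from 3.03 to 85.0 CPM in cKO. Cks2, a small Cdk-binding subunit, went from 18.6 to 447 CPM and from 12.1 to 508 CPM. Its paralogue Cks1b had a smaller rise, with 92.8 CPM in S-marked WT cells against 280 CPM in G2/M (3.02-fold) and 53.6 against 315 CPM in cKO (5.88-fold). Cdc25c, the phosphatase that activates Cdk1, had 61.0 and 68.9 CPM in G2/M-marked cells of WT and cKO, from 3 and 0 S-phase UMIs.

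The passenger complex genes Birc5 (survivin), Cdca8 (borealin) and Aurkb (Aurora B kinase) reached 390, 391 and 121 CPM in G2/M-marked WT progenitors, and 365, 400 and 172 CPM in cKO. Birc5 rose 52.6-fold in WT from 8 S-phase UMIs, and Aurkb had 7 S-phase UMIs in WT and 0 in cKO. Ndc80 and Nuf2, subunits of the outer kinetochore complex that grips microtubules, had 58.4 and 113 CPM in WT and 55.2 and 71.8 CPM in cKO, from at most 3 S-phase UMIs in either library. The condensin genes started higher. Smc4, an ATPase subunit shared by both condensins, had 73.3 CPM in S-marked and 417 CPM in G2/M-marked WT cells, and 25.3 and 186 CPM in cKO, and Ncapd2 of condensin I had 24.1 and 137 CPM in WT and 11.1 and 125 CPM in cKO.

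At the centromere, Cenpa, the histone variant that marks it, rose from 22.3 to 507 CPM in WT and from 16.2 to 625 CPM in cKO. Hjurp, the chaperone that loads Cenpa, rose 3.17-fold and 4.86-fold. Cenpe, a kinetochore motor, reached 213 and 139 CPM, and Cenpf 703 and 695 CPM. Of the Aurora A group, Aurka had 78.1 and 102 CPM in G2/M-marked cells, its activator Tpx2 334 and 237 CPM, Tacc3 179 and 156 CPM and Hmmr 126 and 127 CPM. The kinesins Kif11, Kif20b and Kif2c had 164, 68.7 and 72.1 CPM in WT and 151, 70.2 and 56.5 CPM in cKO. Cdc20, the APC/C activator, rose from 3.71 to 234 CPM in WT and from 7.08 to 280 CPM in cKO. Hmgb2, a chromatin protein, and Top2a, the topoisomerase, were at 2819 and 1001 CPM in WT and 3335 and 767 CPM in cKO. Hmgb2 had the smaller rise of the pair, with 536 and 573 CPM in S-marked cells (5.26-fold and 5.82-fold), while Top2a rose 22.5-fold and 44.6-fold. Tubb4b, Anp32e and Tmpo were at 717, 603 and 578 CPM in G2/M-marked WT progenitors, and the genes not given here ranged from 28.0 CPM (Gtse1 and Anln) to 364 CPM (Mki67).

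Cells marked as G2/M were divided further by whether they still held at least 15 UMIs of the S-phase list (318 WT and 214 cKO cells) or not (111 and 76), a division made after the data were seen. The second group was shallower (median 7205 and 8381 UMIs, against 10924 and 13257), and 1 of its WT cells carried 5096 UMIs of erythroid markers. The sum of the 49 genes was 14763 CPM with S genes and 15309 CPM without in WT, but 16379 and 9332 CPM in cKO. The 16 marking genes moved likewise, at 2935 and 2770 CPM in WT and 2837 and 1481 CPM in cKO. The part of depth and of the mark in the sums was not tested. Because the sums differed, each gene was expressed as a share of the UMIs of all 49. Of the 49 genes, 16 took a larger share in cells without S genes in both libraries, 19 a smaller one, and 14 went opposite ways. No share over all genes was taken for these counts. Within a fixed sum some shares must fall where others rise, so the counts describe the order of the 49 genes only. The share of Cenpa was 1.85 times as large in WT and 1.63 times in cKO, that of Cdc25c 1.81 and 1.70 times and that of Ube2c 1.52 and 1.43 times. Smaller shares were found for Cdk1 (0.524 and 0.5003 times), Aurkb (0.482 and 0.293 times), Ndc80 (0.474 and 0.510 times) and Top2a (0.659 and 0.443 times). Cyclin B2 (1.28 and 1.54 times) and Cenpe (1.40 and 1.27 times) were on the side of Cenpa, and Bub1, a checkpoint kinase, on the side of Cdk1 (0.652 and 0.454 times). Some shares rest on few UMIs. In cells without S genes, WT and cKO had 29 and 12 UMIs of Ndc80, 61 and 22 of Aurkb and 58 and 11 of Bub1. Counting intervals were not taken for the shares.

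The same genes were read in 3 neural progenitor lineages and in OPC. In WT the sum was 14163 CPM in G2/M-marked radial glia (110 cells), 12791 CPM in Eomes-marked cells (74), 16006 CPM in Dlx-marked cells (245) and 15427 CPM in OPC (73). In cKO it was 15804, 14499, 15085 and 15312 CPM, in 86, 74, 130 and 23 cells. Eomes-marked cells had the lowest sum in both libraries, whereas the highest was in Dlx-marked cells in WT and in radial glia in cKO. The log2 ratio of Dlx over Eomes was 0.32 in WT and 0.057 in cKO, and the latter became -0.080 when the minima of both phase marks were raised by 2 UMIs. The Eomes markers did not part these groups well, at 1206 and 1445 CPM in Eomes-marked and 1017 and 1236 CPM in Dlx-marked cells. The Dlx markers did, at 22.2 and 24.9 against 2014 and 2487 CPM. The 16 marking genes were higher in Dlx-marked cells too, at 3009 against 2438 CPM in WT and 2585 against 2465 CPM in cKO. Eomes-marked cells were deeper, at a median of 11019 and 13332 UMIs against 9489 and 12112. The part of the mark and of depth in the sums above and the counts below was not tested. By gene, 20 of the 49 (40.8%) were higher in Dlx- than in Eomes-marked cells in both libraries, against 26.6% of 8771 genes, 6 (12.2%) were lower, against 38.8%, and 23 went opposite ways. For 7 genes (14.3%, against 3.65%) the interval lay above 0 in both: Nusap1, Ube2c, Birc5, Top2a, Smc4, Anp32e and Cdca8. Ube2c had 592 CPM in Eomes- and 974 CPM in Dlx-marked WT cells, and 524 and 772 CPM in cKO. Nusap1, a microtubule bundling protein, had 203 and 287 CPM in WT and 91.7 and 160 CPM in cKO. Both intervals lay below 0 for 0 of the 49 genes, against 7.98%.

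OPC were compared with the neural progenitors in the same way. Of the 49 genes 27 (55.1%, against 31.6% of 10095 genes) were higher in OPC in both libraries, 6 (12.2%, against 30.7%) lower and 16 opposite. The 16 marking genes were higher in OPC too, at 3033 against 2903 CPM in WT and 2715 against 2598 CPM in cKO, and their part was not tested. The intervals lay above 0 in both libraries for 3 (6.12%, against 5.27%) and below 0 in both for 2 (4.08%, against 3.66%), shares near those of all genes. Cdk1 was higher in OPC, at 467 against 378 CPM in WT and 490 against 398 CPM in cKO. Mki67 (455 against 364, and 426 against 330 CPM) and Top2a (1100 against 1001, and 867 against 767 CPM) were higher too. Hmgb2 was lower, at 2332 against 2819 and 2814 against 3335 CPM, as was Cks1b (207 against 280, and 201 against 315 CPM). Outside the neural lineage the marked cells were few. The 12 WT and 10 cKO microglia had sums of 6672 and 9279 CPM with UMIs of all 49 genes, and the 23 and 7 endothelial cells 3874 and 3507 CPM. G2/M-marked endothelial cells were much deeper than the others, at a median of 50997 and 53482 UMIs, and after thinning 4 of 128 WT and 0 of 55 cKO endothelial cells had the mark, against 23 of 132 and 7 of 58 before.

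How many cells carried the G2/M mark was compared after each cell was thinned to 2000 UMIs, which left out 471 WT and 495 cKO cells. The 1% rule set the minima of thinned cells to 2 UMIs for G2/M and 5 for S phase, so that thinned and unthinned shares do not use the same mark. Of all thinned cells 7.07% (419 of 5929) were marked in WT and 5.03% (266 of 5289) in cKO, a difference of -2.04 percentage points (-2.93 to -1.14). With at least 1000 genes and at most 5% mitochondrial UMIs a cell it was -7.58 points (-10.04 to -5.07). Unthinned, the shares were 9.27% and 6.36%. The interval of the difference lay below 0 in Dlx-marked cells, with 198 of 1100 in WT and 108 of 797 (13.6%) in cKO (-4.45 points, -7.77 to -1.05), and in OPC, 16.9% and 9.57% (-7.33 points, -13.1 to -0.969). In radial glia the share was 13.0% and 13.6%, with an interval of the difference from -3.46 to 4.71 points, and in Eomes-marked cells 6.19% and 4.98% (-3.38 to 0.893 points). Among the few microglia 5 of 48 in WT and 7 of 26 in cKO were marked, with an interval from -3.13 to 38.5 points. Neuron-marked cells, the background, had 0 of 1473 in WT and 2 of 1473 in cKO. Unthinned shares were 21.2% and 15.5% in Dlx-marked cells, 19.6% and 11.9% in OPC, 16.0% and 16.7% in radial glia and 8.24% and 6.89% in Eomes-marked cells. The 16 marking genes were themselves lower in cKO within unthinned marked cells. Their median log2 ratio was -0.37 in Dlx-marked cells and in OPC, -0.34 in Eomes-marked cells and -0.17 in radial glia. Fewer cycling cells and lower levels of these genes cannot be told apart in the shares.

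**Figure D3:**
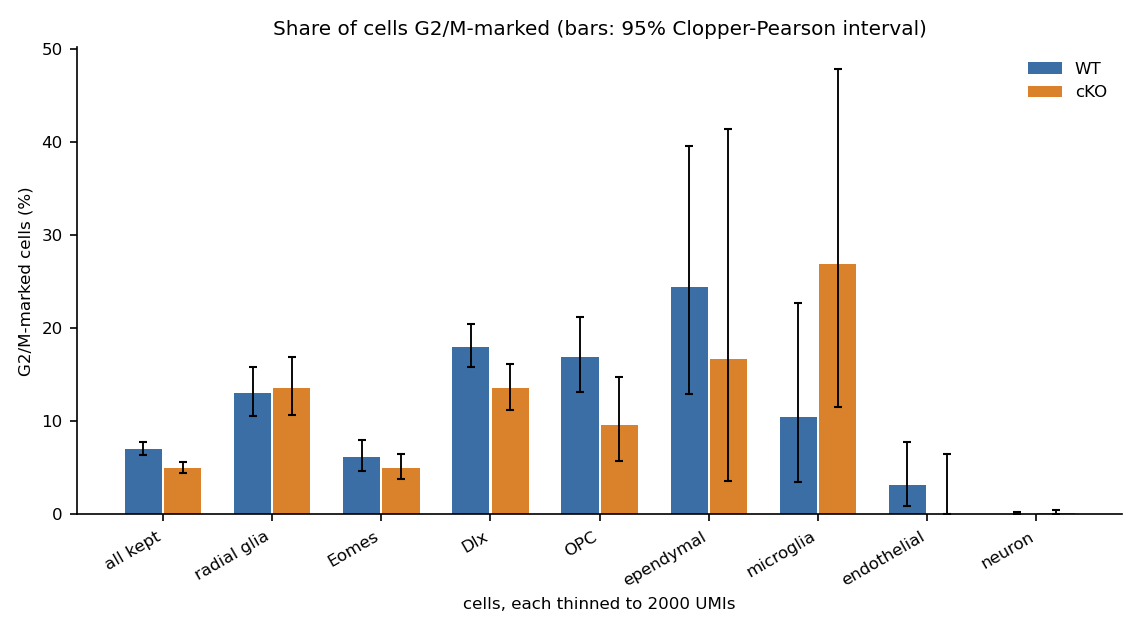
Share of cells with the G2/M mark (y axis, percent of cells thinned to 2000 UMIs) by lineage, with WT and cKO as bars from 0 and 95% exact binomial intervals. Dlx-marked cells and OPC were lower in cKO (a difference of -4.45 and -7.33 points), and radial glia were at 13.6% against 13.0%. Fewer cycling cells and lower levels of the marking genes cannot be told apart in these shares.

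Over all kept cells the 49 genes summed to 2625 CPM in WT (2611 to 2639) and to 2189 CPM (2176 to 2202) in cKO. The log2 ratio was -0.26. Fewer cycling cells and less RNA per cycling cell cannot be told apart in this sum. Marker sums of cell types moved too. Those of radial glia (3885 CPM in WT and 2388 in cKO), OPC (342 and 140), endothelial (500 and 211) and ependymal cells (84.5 and 24.5) were lower in cKO. That of neurons was at 5467 and 5232 CPM. The sum of the Eomes list was higher (275 and 321 CPM), but Dlx-marked cells carry these markers too. The part of these marker sums in the result was not tested. Of the 49 genes 14 were at least 1.5-fold lower in cKO, or 28.6%, against 33.9% of 14588 genes. None was 1.5-fold higher, against 9.52%. The median of the 49 log2 ratios was -0.39, and that of all genes with at least 10 UMIs -0.28. Scaling by TMM factors brought the sum to a log2 ratio of -0.00014, so that its direction depends on the scaling.

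Within G2/M-marked neural progenitors the sums were close, with a log2 ratio of cKO over WT of 0.026 (0.0097 to 0.042) that ranged from -0.077 to 0.079 over the alternatives tried. The median over the 49 genes was 0.032, beside -0.057 over 12405 genes. Radial glia markers in the same cells summed to 7601 CPM in WT and 5422 CPM in cKO, and their part was not tested. Of the 49 genes 8 were at least 1.5-fold lower in cKO (16.3%, against 20.5% of 9761 genes) and 4 at least 1.5-fold higher (8.16%, against 13.8%), so that neither share exceeded that of all genes. As the mean of each cell's CPM the 4 higher genes were all under 1.5-fold (log2 0.38 to 0.54). The ratios of single genes spread from -1.50 to 0.71, with 18 intervals above 0 (36.7%, against 26.9% of all genes), 16 below (32.7%, against 29.4%) and 15 that held 0. Over radial glia, Eomes- and Dlx-marked cells, 16 genes (32.7%, against 28.6%) were higher in cKO in 3 of 3 lineages, 13 (26.5%, against 32.5%) lower in 3 of 3, and 20 mixed.

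Ttk (Mps1), the kinase at the head of the spindle checkpoint, had the lowest ratio. It had 65.5 CPM in WT and 23.1 CPM in cKO (log2 -1.50, -1.86 to -1.15), with -1.19 in radial glia, -1.16 in Eomes- and -1.87 in Dlx-marked cells, and -0.34 in OPC. Smc4 had 417 and 186 CPM (log2 -1.16, -1.29 to -1.04) and was lower by a like amount in each of these, at -1.12, -1.32, -1.06 and -1.15. Outside G2/M it was also lower in neurons, at 14.8 and 6.53 CPM, whereas in radial glia without a phase mark it had 57.7 and 51.8 CPM and an interval that held 0 (log2 -0.16, -0.46 to 0.15). In the few G2/M-marked endothelial cells Smc4 was lower too, at 124 and 52.2 CPM (log2 -1.25, -1.97 to -0.59). In G2/M-marked microglia its interval held 0 (log2 -0.24, -1.04 to 0.54). Ccnb2 had 161 and 85.0 CPM (log2 -0.92, -1.12 to -0.73), ranging from -0.24 in OPC to -1.29 in Dlx-marked cells. Psrc1, a spindle protein, had 90.7 and 50.04 CPM (log2 -0.86, -1.12 to -0.61). These 4 were lower in cKO in each of the 3 neural lineages and in OPC, of which cKO had 23 cells. They were chosen as the lowest in the sum of the same 3 lineages, so that lower values in each lineage are partly set by that choice. The other genes lower by at least 1.5-fold were Nusap1 (log2 -0.77), Nuf2 (-0.66), Bub1 (-0.65) and Cenpe (-0.62).

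At the other end, Nek2, a centrosomal kinase, had 35.5 CPM in WT and 58.1 CPM in cKO (log2 0.71, 0.41 to 1.01). Gas2l3, a cytoskeletal linker of cytokinesis, had 65.9 and 101 CPM (log2 0.62, 0.40 to 0.84), and Kif23 91.4 and 140 CPM (log2 0.62, 0.43 to 0.81). Anp32e had 603 and 904 CPM (log2 0.59, 0.51 to 0.66). On thinned cells the intervals of Nek2 (-0.10 to 1.57) and Gas2l3 (-0.048 to 1.25) held 0. All 4 were higher in cKO in each neural lineage and in OPC, Anp32e by 0.67 in radial glia, 0.82 in Eomes- and 0.54 in Dlx-marked cells and by 0.22 in OPC. These 4 were chosen as the highest in the sum of the neural lineages, so that higher values in each lineage are partly set by that choice. In the passenger complex Aurkb was higher in cKO (log2 0.51, 0.34 to 0.67), while Birc5 (-0.10) and Cdca8 (0.03) had intervals that held 0. At the centromere Hjurp (0.53) was higher and Cenpe lower. Cenpa was at 0.30, but at 0.13 on cells thinned to 2000 UMIs, with an interval from -0.083 to 0.351 that held 0, and Cenpf at -0.02, or -0.17 on thinned cells. Of the most abundant genes Hmgb2 was at 0.24, Cks2 at 0.19, Tubb4b at 0.17 and Tmpo at 0.09, while Top2a (-0.38) and Ube2c (-0.45) were lower. In radial glia without a phase mark Hjurp (log2 0.44, 0.11 to 0.77), Anp32e (0.49, 0.34 to 0.65) and Hmgb2 (0.87, 0.75 to 0.98) were higher in cKO too. Tubb4b was lower in those cells (-0.34, -0.49 to -0.20). On thinned cells Cks2 was at 0.058, Tubb4b at 0.021 and Tmpo at -0.095, all with intervals that held 0. As the mean of each cell's CPM Hmgb2 was at 0.096, Cks2 at 0.029 and Tmpo at -0.010. A single WT cell among the 429 held 5096 of the group's erythroid UMIs, and without it the sum had a log2 ratio of 0.022.

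**Figure D4:**
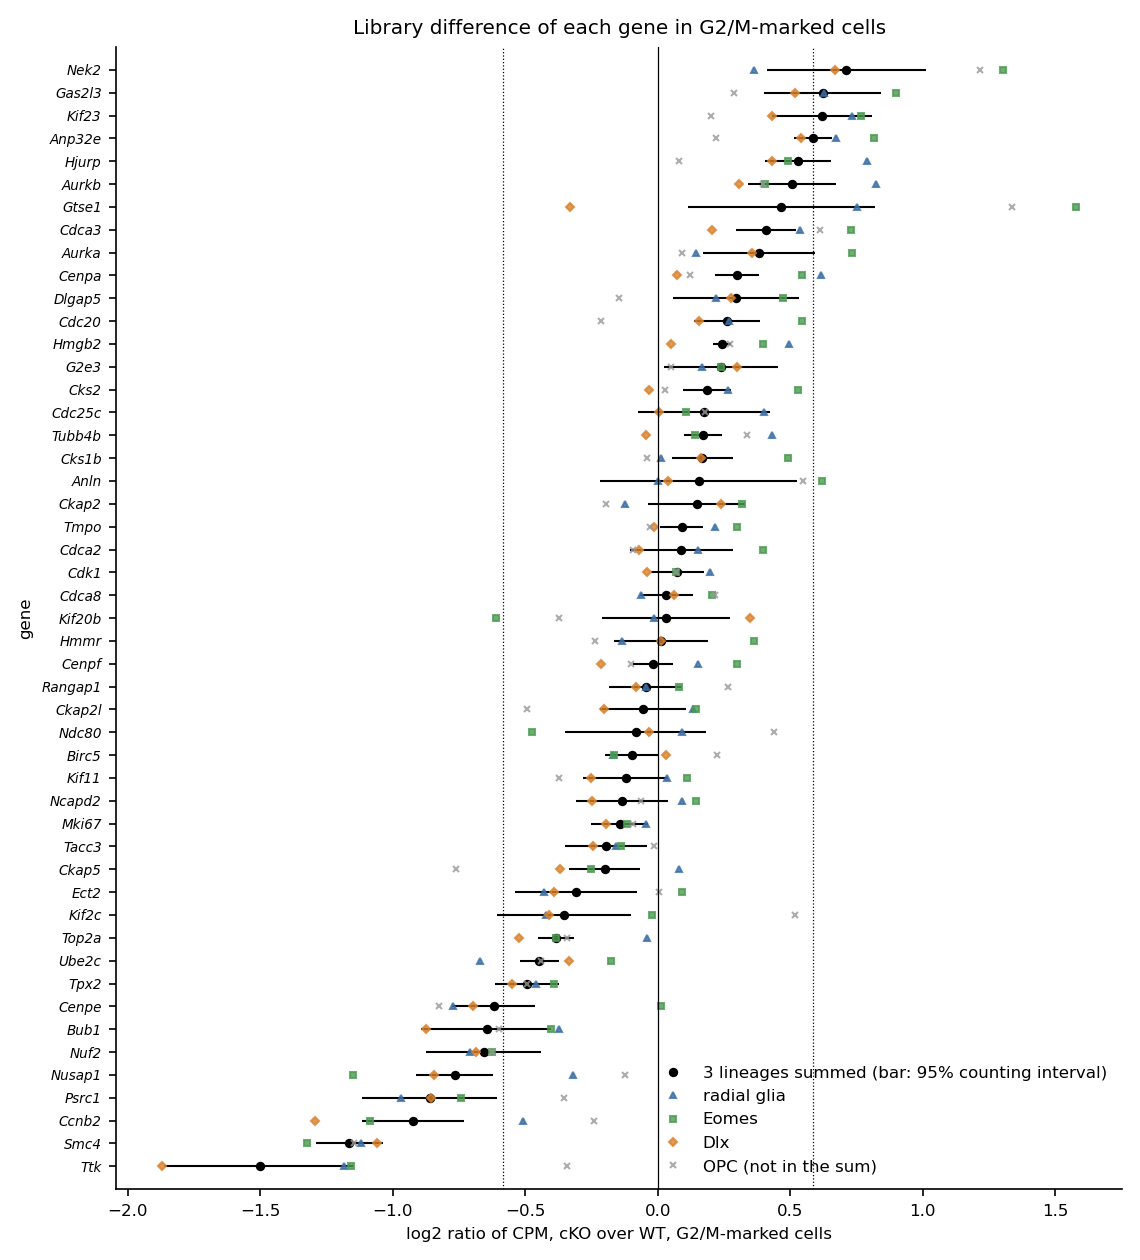
Log2 ratio of cKO over WT CPM (x axis) in G2/M-marked neural progenitors for each gene (y axis). Black points are the 3 neural lineages summed with 95% counting intervals, coloured points the single lineages, crosses OPC, and dotted lines mark 1.5-fold. The genes spread on both sides of 0, with Ttk, Smc4, Ccnb2 and Psrc1 lowest and Nek2, Gas2l3, Kif23 and Anp32e highest.

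The levels of the 49 genes differed widely in ependymal-marked cells, the ciliated cells that line the ventricles. There were 47 such cells in WT and 18 in cKO (median 15715 and 13016 UMIs), with UMIs of 5 of 5 ependymal markers at 5297 and 3681 CPM in sum. Of these, 31 of 47 and 12 of 18 had the G2/M mark, which after thinning fell to 24.4% (11 of 45) and 16.7% (3 of 18). The 49 genes summed to 8669 CPM (8462 to 8880) in WT and 6587 CPM (6291 to 6893) in cKO. However, 9 genes were under 10% of their level in G2/M-marked neural progenitors in both libraries. In both, 19 were at 20% or more of that level and 2 were above it. The count of 9 goes by the values alone. In cKO the upper limits of Nusap1, Ube2c, Birc5, Aurkb, Ttk, Hmmr and Psrc1 passed 10% of the progenitor level. In WT those of Aurkb, Ttk and Hmmr did, so that a level under 10% is not resolved for these genes. Ttk had 4 UMIs in WT and 0 in cKO, with an upper limit of 13.0 CPM in cKO. No share over all genes was taken for these counts, so whether the 49 genes differ from other genes here was not tested.

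The 2 genes above the progenitor level in both libraries were the microtubule genes printed above as exceptions. Tubb4b had 4393 CPM in WT and 2669 CPM in cKO, 6.12 and 3.30 times the level of cycling progenitors. It ranged from 0 to 222 UMIs per cell in WT (median 69) and from 4 to 132 in cKO (median 20), against a median of 5 and 7 in G2/M-marked progenitors. Ckap5 had 483 and 757 CPM (2.07 and 3.73 times). Tubb4b shares exon bases with Fam166a on the opposite strand, but Fam166a had 1 UMI in ependymal-marked WT cells and 0 in cKO. Nek2 was above the progenitor level in WT only (82.2 CPM, 2.32 times, against 35.4 CPM and 0.608 times in cKO, from 10 UMIs). Its opposite-strand gene Gm38037 had 15 UMIs in ependymal-marked WT cells (1.99 times the progenitor level) and 2 in cKO (1.01 times), so that reads of the pair may not be separable.

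Top2a and Mki67, which rose together in cycling progenitors, went apart in ependymal-marked cells. Top2a had 418 CPM in WT and 322 CPM in cKO (0.417 and 0.420 times the progenitor level), with a highest cell of 25 and 17 UMIs. Mki67 had 5 UMIs in all WT cells (6.53 CPM) and 0 in cKO. In WT 29 cells had Top2a without Mki67, 5 had both and 0 had Mki67 alone, and in cKO 10 had Top2a alone and 0 had Mki67. Among G2/M-marked neural progenitors 294 WT cells had both, 64 Top2a alone and 21 Mki67 alone, and in cKO 189, 21 and 37. In OPC 56, 10 and 5 WT cells, and 18, 0 and 2 cKO cells, were so divided. At a depth of 2000 UMIs Top2a was seen in 48.9% of ependymal-marked WT cells (22 of 45) and 33.3% of cKO cells (6 of 18), against 0.204% and 0.611% of neurons, which serve as the background of free RNA. At this depth Mki67 was seen in 0 of 45 and 0 of 18, against 45.7% and 46.3% of G2/M-marked progenitors. Unthinned, it was seen in 5 of 47 ependymal-marked WT cells (10.6%) and 0 of 18 cKO cells.

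Other genes fell on the side of either. With Top2a, Cdk1 had 230 and 272 CPM (0.608 and 0.684 times the progenitor level), Smc4 235 and 113 CPM (0.564 and 0.609), Cks2 222 and 127 CPM (0.497 and 0.251) and Cdc20 191 and 131 CPM (0.815 and 0.467). Ckap2l, a spindle protein of progenitors, had 162 and 103 CPM (1.05 and 0.690). With Mki67, Nusap1 had 3.92 and 3.54 CPM, Cdca3 7.83 and 7.07 CPM, Birc5 14.4 and 24.8 CPM, Aurkb 9.14 and 7.07 CPM and Hmmr 5.22 and 0 CPM. Psrc1 had 0 UMIs in both, and Ttk and Ube2c were the remaining 2 of the 9 genes under 10%. The passenger complex was again uneven, with Cdca8 at 107 and 53.0 CPM (0.274 and 0.133). The marking genes divided as well. Ccnb1, cyclin B1, had 115 and 60.1 CPM (0.346 and 0.154 times), while Ccna2, cyclin A2, had 3.92 and 0 CPM. The S-phase list summed to 467 and 548 CPM, against 413 and 405 CPM in radial glia without a phase mark.

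**Figure D5:**
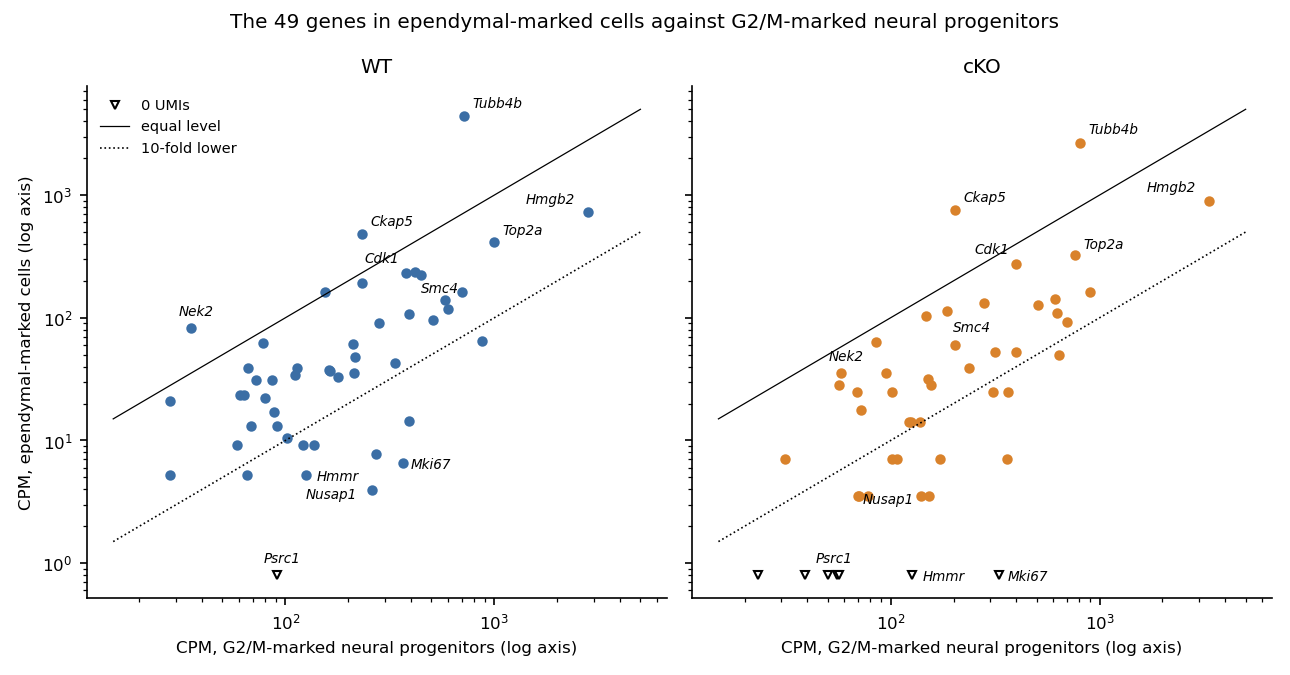
CPM of each of the 49 genes in ependymal-marked cells (y axis) against G2/M-marked neural progenitors (x axis), on log axes, in WT and cKO. The solid line marks equal levels and the dotted line a 10-fold lower level, and triangles at the bottom are genes with 0 UMIs. Tubb4b and Ckap5 lie above the solid line in both panels, and Mki67, Nusap1, Hmmr and Psrc1 below the dotted one. By their counting intervals, Psrc1 and Nusap1 in cKO (0 and 1 UMIs) and Hmmr in both libraries (4 and 0 UMIs) are not resolved from the dotted line.

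Radial glia without a phase mark (538 WT and 402 cKO cells) gave a second reference. There Top2a had 8.41 and 3.75 CPM, Cdk1 9.86 and 2.50 CPM, Tubb4b 268 and 211 CPM and Ckap5 197 and 257 CPM, all below ependymal-marked cells. These radial glia were chosen for lacking the mark that 31 WT and 12 cKO ependymal-marked cells carried, so that part of the difference is set by that choice. The 49 genes summed to 1296 CPM in WT and 1652 CPM in cKO in these radial glia, and to 7235 and 2978 CPM in the 16 WT and 6 cKO ependymal-marked cells below the G2/M mark. Without Tubb4b the sum had a log2 ratio over these radial glia of 2.06 in WT and 1.44 in cKO. In the cells below the mark it was 0.62 and 0.38. Top2a was at 38.4 CPM in those 16 WT cells and 0 in the 6 cKO cells, and Tubb4b at 5654 and 1102 CPM. These cells were unlike between the libraries, with ependymal markers at 5238 CPM (5 of 5 found) in WT and 954 CPM (3 of 5) in cKO, and radial glia markers at 7063 and 12734 CPM. Genes of multiciliated cell differentiation, looked up after these values were seen, were read in all ependymal-marked cells, with or without the mark. Ccno had 234 and 311 CPM against 1.45 and 1.56 CPM in unmarked radial glia, Mcidas 78.3 and 38.9 CPM against 0, and Cdc20b 26.1 and 21.2 CPM against 0. Foxj1, itself one of the ependymal markers, had 1277 and 1379 CPM against 21.5 and 16.5 CPM, and Gmnc had 4 UMIs in WT and 0 in cKO. E2f7, a repressor of the E2F family, had 54.8 and 53.0 CPM against 0.870 and 0.936 CPM.

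Other lists of related genes were read in the same G2/M-marked neural progenitors. Of 14 partners of the same complexes, 8 were higher and 6 lower in cKO, with a median log2 ratio of 0.044. The condensin I subunit Ncapg was at -0.92 (66.8 and 35.2 CPM), while the condensin II subunits Ncapg2 (0.75) and Ncapd3 (0.60) were higher, the condensin II subunit Ncaph2 was at 0.017 (-0.18 to 0.22) and Smc2, the partner of Smc4, at -0.02. Incenp, the scaffold of the passenger complex, was at 0.37 and Bub3 at 0.40, and Spc24, of the Ndc80 complex, at -0.52. Of 17 regulators 14 (82.4%) were higher and 3 lower, with a median of 0.21, where 46.9% of 12405 genes were higher. Foxm1 had 55.8 and 91.5 CPM (log2 0.71, 0.47 to 0.95), and the MuvB subunits Lin52 (0.87), Lin9 (0.75) and Lin54 (0.59) were higher, while Lin37 was at -0.24 with an interval that held 0 (-0.73 to 0.24). Also higher were Wee1 (0.73), the kinase that holds Cdk1 inactive, and Rbl1 (0.71). Nfya, a subunit of NF-Y, was lower (21.2 and 9.95 CPM, log2 -1.09), and the intervals of its partners Nfyb (0.12) and Nfyc (-0.19) held 0. Foxm1 rose 60.2-fold in WT and 18.1-fold in cKO from 1 and 5 S-phase UMIs, whereas E2f1, a factor of S-phase entry, was at 0.733 times its S-marked level in G2/M-marked WT cells and at 0.878 times in cKO, where the interval held no change (log2 -0.51 to 0.15). Of the 16 genes that marked the cells as G2/M, 11 were lower in cKO, with a median of -0.29, among them Cdkn3, a phosphatase, at -1.85 and the kinesin Kif15 at -1.55. Of the 29 S-phase genes 19 were lower, with a median of -0.17.

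Some values carry limits of the annotation. In GENCODE M21 on GRCm38, 10 of the 49 genes (Nusap1, Ube2c, Tmpo, Tacc3, Ckap2l, Tubb4b, Cdc20, Cdc25c, Rangap1 and Nek2) share exon bases with a gene on the opposite strand that is listed in the matrices, and Cdca8 with one that is not listed. Whether counting used strand is not given in the sources used here. Hmgb2 and Tubb4b have near-identical transcripts from other loci (at least 95% identity over 300 bases or more), of which 0 are listed in the matrices, and whether reads of those loci were counted for them is unknown.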

How the data were processed

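The study sequenced dissociated P0 cortex on the 10x Chromium platform, 1 WT and 1 cKO library. The authors deposited raw UMI counts per gene and barcode for 10715 WT and 9198 cKO barcodes. Per the labels' processing notes STAR, Cell Ranger 2 and Seurat were used and build mm9 is named with no role, while the matrix header names Cell Ranger 3.0.1. Annotation, cell calling and strand are not given in the sources used here. Deposited tables other than these count matrices were not used.

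Cells with at least 500 genes and at most 10% mitochondrial UMIs were kept. Scrublet in scanpy 1.11.5 marked 165 WT cells and 0 cKO cells at its automatic threshold, so the highest scores were removed at a rate of 0.8% per 1000 cells (366 and 296 cells). UMIs were summed per library and cell group. CPM carry exact Poisson intervals, ratios the exact conditional binomial interval and shares the Clopper-Pearson interval. These cover counting error only. No p-value is given with 1 library a group. A ratio against 0 UMIs is given as a bound at a floor of 3 UMIs. The calculations were tested on simulated counts. Lineages were set from marker lists (for example at least 10 UMIs of 4 radial glia markers, 3 UMIs of 2 Eomes or Dlx markers, 5 UMIs of 3 OPC or ependymal markers). Background shares count genes with at least 50 UMIs in the groups compared. Near-identical transcripts and overlaps were sought in GENCODE M21 and promoters taken from RefSeq, both on GRCm38. TMM factors came from edgeR 4.0.16 in R 4.3.3 and served for scaling alone.

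The 49 genes and all lists were chosen with earlier results of these data known. The lineage minima, the doublet rate, the division by S-phase UMIs, the ependymal reference, the ciliation genes and the promoters printed were chosen after seeing the data. Genes given in full are the 10 with the most UMIs in G2/M-marked neural progenitors, the 4 highest and 4 lowest in G2/M over S phase (at least 20 UMIs in each library) and in cKO over WT (at least 50 UMIs in all), and members of named complexes. Ependymal values and the Mki67 comparison fall outside this rule. Alternatives were cells unfiltered or filtered more strictly, doublets kept, raised minima, thinning, TMM factors, CPM without 3 abundant gene classes (mitochondrial, ribosomal, haemoglobin) and the mean of each cell's CPM.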

Additional observations from a re-analysis of the deposited data

How the results depend on the processing

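No paired analysis was possible because each group has 1 library, and leaving out a replicate was not possible for the same reason. The log2 ratio of cKO over WT of the summed genes in all cells (-0.26) was -0.25 without filters, -0.31 on cells thinned to 2000 UMIs, -0.00014 with TMM factors, -0.24 without mitochondrial, ribosomal protein and haemoglobin genes and -0.31 as the mean of each cell's CPM. In G2/M-marked neural progenitors (0.026) it was 0.066 with at least 1000 genes and at most 5% mitochondrial UMIs, -0.010 with both phase minima raised by 2 UMIs, -0.050 on thinned cells, 0.064 with TMM factors, -0.077 as the mean of each cell's CPM and 0.079 with the 3 lineages weighted equally, so that its direction is not settled. In S-marked progenitors (-0.21) it was 0.41 under the stricter filter, -0.11 with raised minima, 0.087 on thinned cells and -0.074 as the mean of each cell's CPM. The share of G2/M-marked cells differed by -2.04 points, and by -7.58 under the stricter filter. On unthinned cells that filter also moved the minima of the marks, from 3 to 6 UMIs for G2/M and from 15 to 13 for S phase, so that its summed values change both, while on the thinned cells used for the share both stayed at 2 and 5. The ratio of Dlx over Eomes in WT (0.32) was 0.36 with doublets kept, 0.23 with raised phase minima and 0.36 with raised lineage minima, and in cKO (0.057) -0.080 with raised phase minima. The ratio of the summed genes in G2/M-marked over S-marked progenitors (log2 2.83 in WT and 3.07 in cKO) was 2.74 and 2.83 with raised minima. Without Tubb4b, the ratio of ependymal-marked cells over radial glia (2.06 and 1.44) was 0.62 and 0.38 in cells below the G2/M minimum. Tmpo (0.09) turned to -0.095 on thinned cells and -0.010 as the mean of each cell's CPM, whereas Ttk, Smc4, Ccnb2, Psrc1, Nek2, Gas2l3, Kif23 and Anp32e kept their direction under every alternative. The cause of these shifts was not tested. The equal weights, the comparison below the G2/M minimum and leaving out cells with 10 or more erythroid UMIs, which gave 0.022, were added after seeing the data. Depth limits the groups of few cells, where many of the 49 genes have fewer than 10 UMIs.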
